A study of Spodoptera frugiperda with 8 samples.

Results

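Lysozyme and diapausin are secreted effectors of the insect immune response, and 1 probe for each was followed here through the larvae of 3 strains of the fall armyworm, Spodoptera frugiperda. The probes were CUST_10566_PI426916786, which the array names lysozyme, and CUST_9324_PI426916786, which it names diapausin, written below without the suffix that all probes of the design share. They were picked by probe name from the 13808 probes of the array, with earlier results of these arrays known, as 2 probes whose signal separated the strains: CUST_10566 by the difference between PYR and SUS, and CUST_9324 by its loss in both resistant strains. Those ratios are therefore given as a description, without a test.

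Lysozyme cleaves the peptidoglycan of bacterial cell walls. Diapausins are small, cysteine-rich peptides first known from diapausing beetles and later found in Lepidoptera, where they act mainly against fungi. In caterpillars both are made chiefly by the fat body and the hemocytes, are released into the hemolymph, and belong with cecropins, lebocins, gallerimycins and hemolin to the effectors and recognition proteins induced after infection.

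The OP strain had been selected in the laboratory with topical chlorpyrifos, an organophosphate, at doses raised from 100 to 400 µg per g of insect, and the PYR strain with lambda-cyhalothrin, a pyrethroid, at doses raised from 8.4 to 27 µg per g. OP and PYR descended from field populations of different Brazilian states, Minas Gerais and Mato Grosso. The SUS strain was the susceptible reference, long kept in the laboratory without insecticide, so origin and selection cannot be told apart. All strains were reared on artificial diet. Total RNA of pools of 5 whole second instar larvae was hybridised in 2 colours, 4 arrays setting OP against SUS and 4 setting PYR against SUS, with the resistant strain in Cy5 on replicates 2 and 4 and in Cy3 on replicates 1 and 3. Each strain was a single laboratory line, and the SUS pools carried the same numbers in both comparisons. By the scanner's records the OP and PYR arrays filled different rows of 1 slide, whereas the series description speaks of 2 slides. Either way, position (row or slide) and comparison cannot be told apart. In whole larvae, fewer cells of a type and less RNA per cell cannot be told apart either.

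Each probe had 1 spot on each array. Its processed signal is the scanner software's background-subtracted and dye-normalised brightness, and the software also states whether a channel was well above background. Of the 15208 spots, 5406 to 11060 were well above background for the resistant strain and 5155 to 8107 for SUS. The OP channel of replicate 1 (11060 spots) and the PYR channel of replicate 2 (9333 spots) had the most. A ratio is the log2 of the resistant strain over SUS. Where a strain was never well above background, only a lower bound on the fold is given. It divides the brighter strain's mean by that of the dimmer strain, whose reading on each array is raised to the dimmest probe still well above background wherever it falls below it. Log2 signals normalised within and between arrays were averaged for this. Where the brighter strain was itself at background on some arrays, those readings entered its mean, and the quotient is then not a strict bound. Unless a range is given, a bound is that of this normalisation, and some were lower under others.

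The lysozyme probe was bright only in PYR among the 3 strains. Its processed signal in the PYR pools 1 to 4 was 365, 1819, 494 and 274, well above background on all 4 arrays. On the same arrays the SUS channel read 24.9, 39.3, 15.1 and 13.1 and was not well above background on any. The lowest PYR pool thus lay above the highest SUS reading, and pool 2 stood apart as the brightest.

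On the OP arrays neither channel of the lysozyme probe rose above background. OP read 23.7, 14.0, 20.7 and 16.9, and SUS read 15.7, 14.6, 29.2 and 17.4. The ranges overlapped, no fold can be given, and the probe did not reach the test.

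PYR therefore exceeded SUS at least 10.8- to 12.8-fold for lysozyme, depending on the normalisation. The scanner's log2 ratios, whose denominator was background, were 3.87, 5.53, 5.03 and 4.39, a mean of 4.71 ± 0.73 (SD, n = 4). They were positive with PYR in either dye, at a mean of 4.96 with PYR in Cy5 and 4.45 with PYR in Cy3. On the OP arrays, the ratios of OP over SUS were 0.60, 0.00, -0.50 and 0.00 (0.02 ± 0.45, SD, n = 4), where the software had set 2 of the values to 0.

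**Figure D1:**
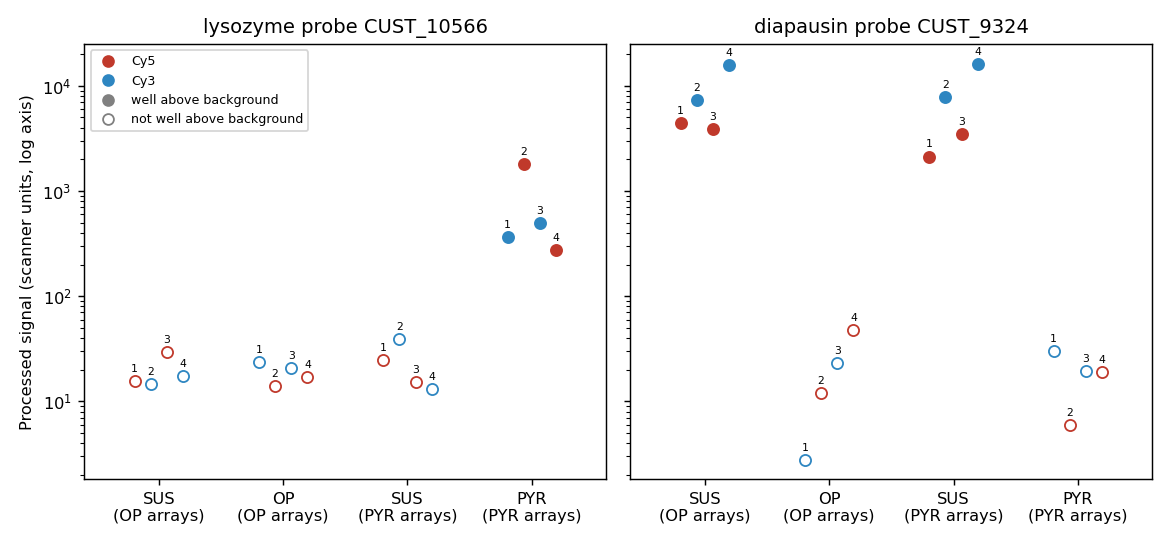
Processed signal of the lysozyme probe CUST_10566 and the diapausin probe CUST_9324 in every channel (scanner units, log axis), grouped by strain and set of arrays, with the replicate number above each point, the dye as colour and filled points well above background. Lysozyme was well above background in the 4 PYR pools alone (274 to 1819), and diapausin in the 8 SUS readings alone (2125 to 16170).

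In normalised log2 signal, lysozyme stood at 9.36 ± 0.99 in PYR, 4.36 ± 0.51 in SUS and 4.15 ± 0.34 in OP (SD, n = 4 pools of each strain, with the readings of each SUS pool averaged). The order of SUS and OP has no meaning, since both lay at background and differed by less than their spread. Of the 13808 probes, 4 (0.029%) shared this pattern of flags, well above background in PYR on 4 of 4 arrays and in OP and SUS on none. CUST_10566 was the only one of them that the array names as an immune gene. Another of them, CUST_2419, has no gene name on the array, so it could not have been named immune. Since CUST_10566 had been picked for its difference between PYR and SUS, this count is a description only.

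Diapausin CUST_9324 was the reverse: bright in SUS and at background in both resistant strains. The SUS pools 1 to 4 read 4410, 7304, 3888 and 15841 on the OP arrays and 2125, 7804, 3494 and 16170 on the PYR arrays, all well above background. OP read 2.80, 12.1, 23.3 and 47.4, and PYR read 30.1, 5.92, 19.3 and 18.9, none of them well above background. The dimmest SUS reading was thus far above the brightest OP or PYR reading.

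Diapausin was at least 239- to 291-fold lower in OP than in SUS, and at least 132- to 138-fold lower in PYR, depending on the normalisation. The log2 ratios, with background as numerator, were -10.62, -9.24, -7.38 and -8.39 in OP (-8.91 ± 1.37, SD, n = 4). They were -6.14, -10.36, -7.50 and -9.74 in PYR (-8.43 ± 1.96, SD, n = 4). Every array was far below 0, but the PYR values fell into the dye orientations, at a mean of -10.05 with PYR in Cy5 and -6.82 with PYR in Cy3. The dyes went with different pools, so dye and pool cannot be told apart. The OP means were -8.81 and -9.00. Since these sizes depend on how dim a background channel was read, OP and PYR are not ranked against each other.

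In normalised log2 signal, diapausin CUST_9324 stood at 12.66 ± 0.76 in SUS, 4.16 ± 1.43 in PYR and 3.51 ± 2.08 in OP (SD, n = 4 pools), the last 2 both at background. The flag pattern, SUS on 8 of 8 readings and both resistant strains on none, was shown by 3 of 13808 probes (0.0217%). CUST_9324 was again the only one named as an immune gene, but it had been picked for this loss, so the count is a description only. CUST_5696, which shared the pattern, has no gene name on the array and could not have been named immune.

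The size of these ratios rested on the signal treatment. An alternative took median signals, normexp background correction with an offset of 50, and loess in place of the scanner's dye normalisation. The offset was larger than the background-subtracted lysozyme signal on 3 of the 4 PYR arrays. The lysozyme ratio in PYR became 0.85, and the diapausin ratios became -3.90 in OP and -3.26 in PYR, the directions being kept. The parts of this change were not tested separately.

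Each SUS pool gave the diapausin signal once on each set of arrays, which shows how the reading varied between hybridisations and between pools. Before dye normalisation, CUST_9324 read 211, 372, 353 and 1401 in SUS pools 1 to 4 on the OP arrays, and 164, 293, 297 and 1272 on the PYR arrays. The OP-array reading was 1.101 to 1.287 times the PYR-array reading of the same pool. Between pools the spread was wider, with pool 4 brightest and pool 1 dimmest in both sets. Pools 1 and 3 were read in Cy5 and pools 2 and 4 in Cy3, so this spread mixes pool and dye. After dye normalisation, pool 3 (3888) was dimmer than pool 1 (4410) on the OP arrays. After dye normalisation the readings of pools 2, 3 and 4 differed at most 1.11-fold, and those of pool 1 differed 2.08-fold.

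**Figure D2:**
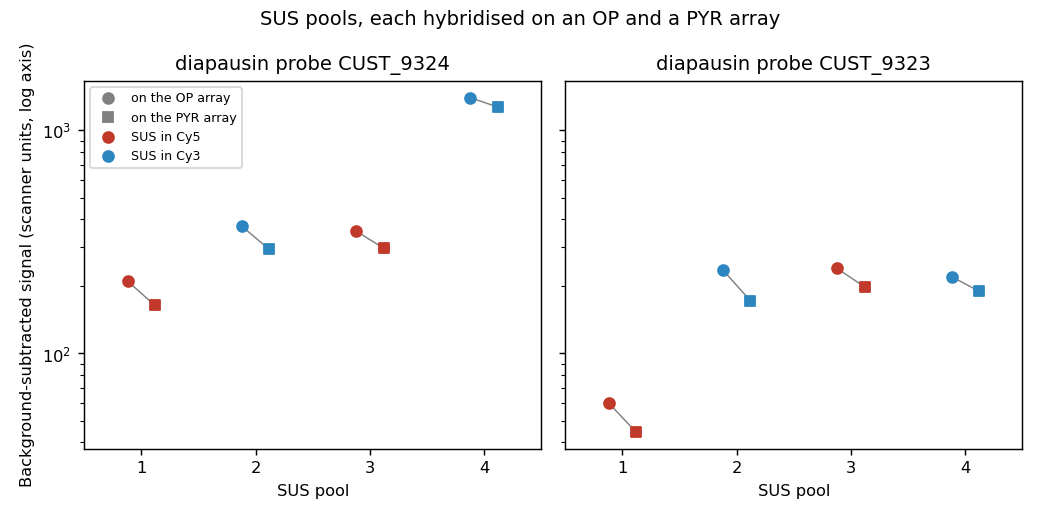
Background-subtracted signal (scanner units, log axis) of the diapausin probes CUST_9324 and CUST_9323 in each SUS pool, on its OP array (circles) and its PYR array (squares), with the dye of SUS as colour. Pool 4 was brightest for CUST_9324 (1401 and 1272), and pool 1 was dimmest for CUST_9323 (59.97 and 44.41).

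The array held 3 more diapausin probes, of which CUST_9323 was well above background on all SUS readings. It belongs to another expressed sequence tag (EST), from a midgut library, whereas the EST of CUST_9324 came from immune-challenged hemocytes. The study lists both as diapausin precursor. CUST_9323 was low in OP but not in PYR.

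In OP, CUST_9323 read 41.2, 43.7, 26.3 and 19.99 against 1144, 5902, 3133 and 2719 in SUS. The log2 ratios were -4.80, -7.08, -6.90 and -7.09 (-6.47 ± 1.12, SD, n = 4). Before dye normalisation, OP read 56.3, 15.1, 0.57 and 0.40 against 59.97, 236, 240 and 221 in SUS. On replicate 1 these readings were close to each other, so the size of that array's ratio came from the dye normalisation. OP was well above background on replicates 1 and 2 only. The study had singled out this probe in the OP comparison, so no test is given there.

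In PYR, CUST_9323 read 513, 21173, 830 and 6072 against 453, 6026, 2256 and 2691 in SUS, with every channel well above background. The ratios were 0.18, 1.81, -1.44 and 1.17, and their mean of 0.43 ± 1.42 (SD, n = 4) did not pass the test (limma, Benjamini-Hochberg adjusted p = 0.638, 95% interval -0.97 to 1.83). The interval leaves room for a change of either sign. Leaving out 1 array gave means from -0.03 (without replicate 2) to 1.06 (without replicate 3).

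Within the PYR pools, then, CUST_9324 was at background on every array while CUST_9323 was measured on every array. The pattern of CUST_9323, SUS on 8 of 8 readings, PYR on 4 of 4 and OP on at most 2 of 4, was shared by 12 of 13808 probes (0.0869%). The other diapausin probes, CUST_9325 and CUST_9326, were well above background in 1 and 0 resistant channels and in no SUS channel, and were not tested.

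**Figure D3:**
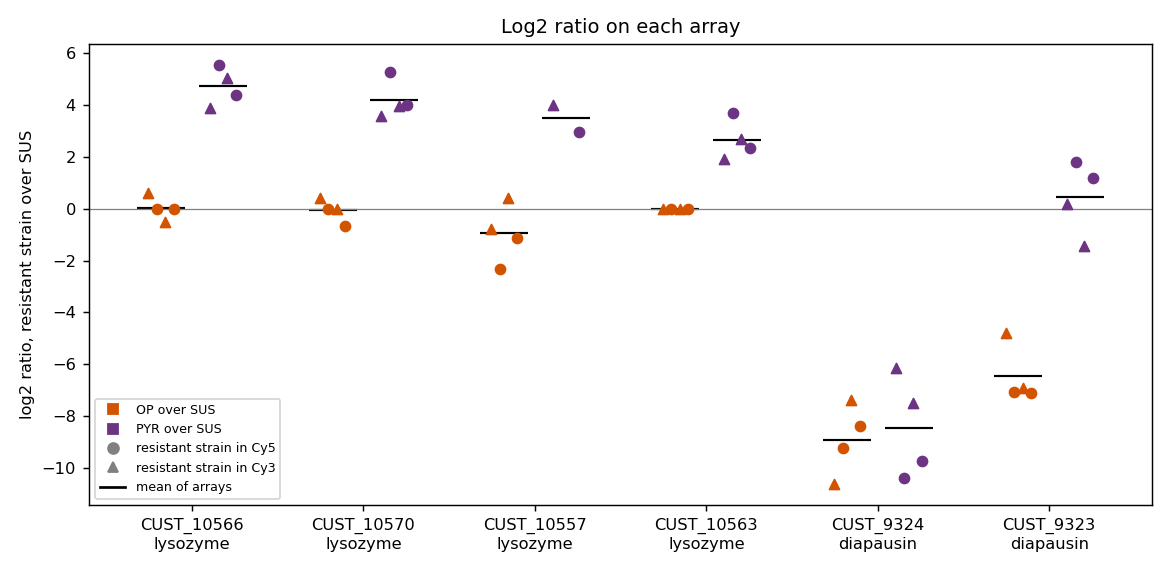
Log2 ratio of the resistant strain over SUS on each array for 4 lysozyme and 2 diapausin probes, with OP and PYR as colours, the dye of the resistant strain as symbol and the mean as a bar (marked spots left out). Lysozyme CUST_10566 and CUST_10570 were at or near 0 in OP and between 3.57 and 5.53 in PYR, and diapausin CUST_9323 was between -7.09 and -4.80 in OP and between -1.44 and 1.81 in PYR.

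More lysozyme probes were listed by the study as higher in PYR. CUST_10570 was designed on the same fat body EST as CUST_10566, so the pair are not separate genes. It read 445, 1822, 390 and 269 in PYR, with SUS at background on all 4 arrays, and its ratios were 3.57, 5.25, 3.94 and 3.98 (4.18 ± 0.73, SD, n = 4), at least 12.1-fold higher. In OP its ratios were 0.42, 0.00, 0.00 and -0.66.

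Lysozyme probes from other ESTs were also higher in PYR. CUST_10557, from a hemocyte EST, gave ratios of 4.00 and 2.96 on replicates 1 and 4, at least 10.8-fold higher, its spots on the remaining arrays having been marked as uneven. CUST_10563, from another fat body EST, gave 1.90, 3.66, 2.67 and 2.35, with PYR well above background on replicates 2 and 3 only. Its quotient of 4.11 is therefore not a strict bound. The study listed these 3 probes from this same comparison, so their agreement with CUST_10566 is not independent evidence, and no test is given.

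PYR pool 2 gave the largest ratio for CUST_10566, CUST_10570, CUST_10563 and CUST_9323. It was also the PYR channel with the most spots above background (9333, against 5406 to 7265). Without it the lysozyme mean of CUST_10566 was 4.43. The part of that channel's brightness in the pool's higher signals was not tested.

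Of the remaining 19 lysozyme and lysozyme-like probes, none was called. In each comparison 15 were tested and 0 passed (limma, adjusted p under 0.01 and more than 2-fold), against 2.93% of all 6958 probes tested in OP and 2.06% of all 6065 in PYR. At an unadjusted p under 0.05 there were 4 in OP and 4 in PYR, beside 26.7% and 32.2% of all probes tested. The methods' t-test, run here on the scanner's ratios with the filter used here, called 0 of all probes in either comparison. The study itself reported calls in both comparisons, after its own normalisation and filtering. The median log2 ratio of the lysozyme probes tested was -0.19 in OP and -0.32 in PYR, beside 0.10 and 0.08 over all probes tested.

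Both strains were well above background on all 4 arrays for 12 of these probes in OP and for 12 in PYR. Their mean ratios ran from -0.58 to 1.58 in OP and from -1.66 to 1.58 in PYR. CUST_10574, CUST_10558 and CUST_10564 were above 0 on all 4 PYR arrays, with means of 1.58, 1.05 and 1.04 (adjusted p = 0.0669, 0.112 and 0.124, limma). In OP the same probes were above 0 on 3 of 4 arrays, with means of 0.68, 1.35 and 1.58, and below 0 on replicate 2. CUST_10575 was below 0 on all 4 PYR arrays (-1.66 ± 0.87, SD, n = 4, limma adjusted p = 0.0560). So were CUST_10573, CUST_10572, CUST_10571 and CUST_10560, with smaller means of -0.48, -0.38, -0.29 and -0.24 (limma adjusted p from 0.318 to 0.618).

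The lysozyme probes tested differed from array to array in OP. On replicate 1, 13 of 15 were above 0 with a median of 1.18, and on replicate 2, 13 of 14 were below 0 with a median of -1.95. On replicate 3, 13 of 15 were above 0 with a median of 0.20, and replicate 4 was split, with 8 above and 7 below 0 and a median of 0.56. Over all probes tested, the medians of these arrays lay between 0.05 and 0.26, on which replicates 1 and 2 stood at 0.26 and 0.10. The array names do not show which of these probes share a transcript, so they are not counted as separate genes. In PYR the lysozyme medians ran from -0.49 to 0.07.

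Lysozyme-like probes showed other patterns. CUST_10578 was above 0 on all 4 OP arrays (1.601, 2.74, 1.12 and 4.06), with a quotient of 2.99 that is not a strict bound. It was 0 throughout in PYR. SUS was never well above background and OP was on 3 arrays, so the probe entered the test through OP alone and its ratios have background as denominator (limma adjusted p = 0.0353). CUST_10577 was below 0 on all 4 OP arrays, at -1.53, -1.88, -3.25 and -1.58 (limma adjusted p = 0.0280), and at -3.32, 2.00, -2.69 and -0.53 in PYR. Neither passed the threshold of 0.01.

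**Figure D4:**
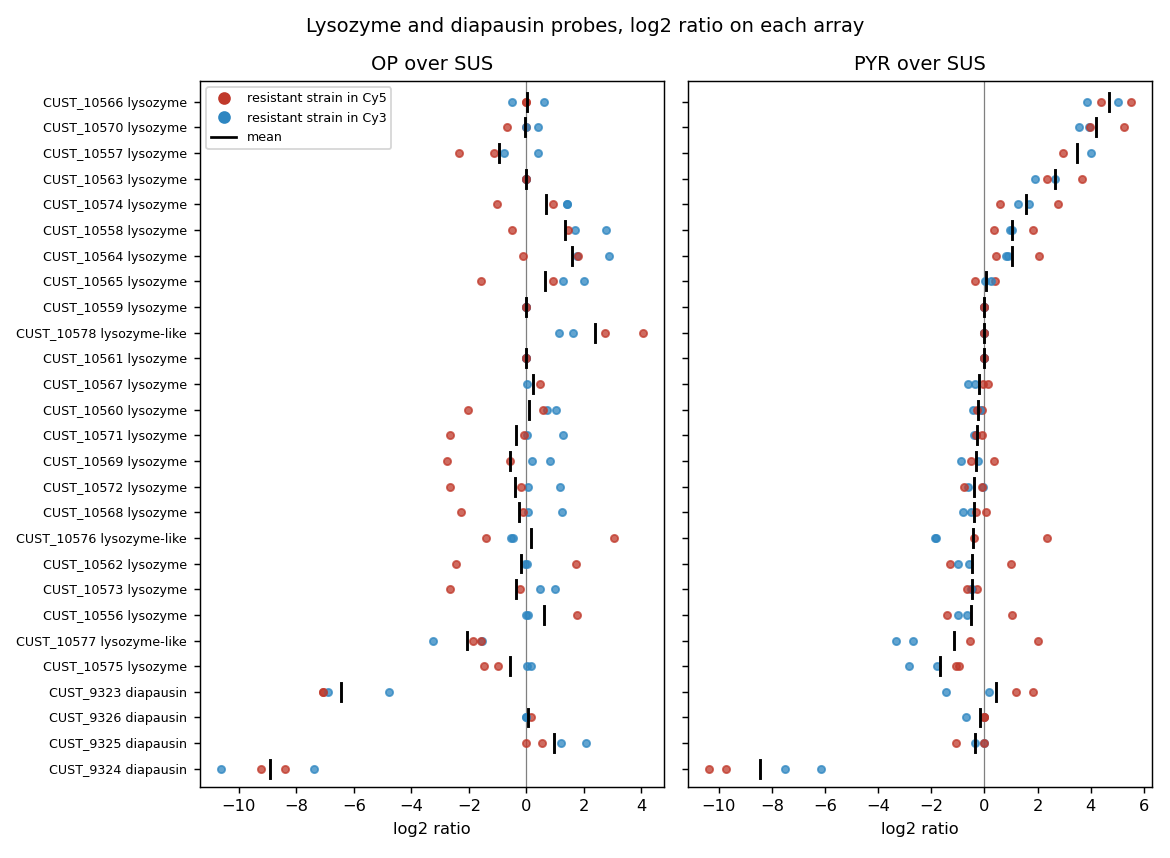
Log2 ratio over SUS on each array for the 23 lysozyme and lysozyme-like probes and the 4 diapausin probes, sorted within each family by their PYR mean (black bar), with the dye of the resistant strain as colour. The 4 uppermost lysozyme probes stood at 1.90 or above on each PYR array plotted, whereas the other lysozyme means in PYR lay between -1.66 and 1.58.

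The probes nearest to the members over the 8 arrays were found by the root mean square difference of log2 ratios, among 10855 probes with a value on every array. CUST_10570 was nearest to lysozyme (0.53), followed by CUST_2419 (0.93), CUST_868 (1.26), CUST_4095 (1.44) and CUST_5538 (1.46). CUST_2419 comes from a library of midgut exposed to xenobiotics, CUST_868 and CUST_4095 from fat body and CUST_5538 from hemocytes, and the array gives none of them a gene name. Mean ratios of CUST_2419 were -0.02 in OP and 4.88 in PYR, and it too was well above background in PYR alone.

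Nothing lay as near to diapausin CUST_9324. Its nearest probes were CUST_12311 (2.78), CUST_1524 (2.81), CUST_5696 (3.22), CUST_6935 (3.61) and CUST_7080 (3.67), of which the last 4 come from a library of pooled tissues and have no gene name. All 5 were well above background in SUS on 8 of 8 readings. Only CUST_5696 was, like diapausin, above background in neither resistant strain.

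Immune genes were otherwise followed through the 94 probes whose array name holds an immune keyword. They comprised the lysozyme and diapausin probes, 32 probes for other antimicrobial peptides, 19 for melanisation enzymes and serpins, 11 named immune or immune-related, 3 for recognition proteins and 2 for signalling. Of these, 8 are members or probes that the study listed, described above or below without a count of calls.

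Among the other 86 immune probes, 48 were tested in OP and 1 was called, a share of 2.08% beside 2.93% over all probes. It was CUST_8632, a cecropin, one of the small helical peptides that lyse bacterial membranes, with ratios of 2.75, 4.69, 2.96 and 6.07 (4.12 ± 1.56, SD, n = 4, limma adjusted p = 0.00896). OP was well above background on 4 arrays and SUS on only 1, so it entered the test through OP and its denominator was mostly background. The call was lost without replicate 1, 2 or 4 (adjusted p = 0.0211, 0.0537 and 0.0351). In PYR, 44 were tested and 0 were called, beside 2.06% over all probes, with 13 at an unadjusted p under 0.05 beside 32.2% over all probes, and the methods' t-test called 0 of all 6065 probes.

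Of the 11 cecropin and cecropin-like probes, 6 were tested in each comparison, with mean ratios from 0.05 to 4.12 in OP and from -0.95 to 4.13 in PYR. CUST_8635 and CUST_8632 had the largest. Apart from CUST_8635 in OP, which the study listed, 1 of 5 was called in OP and 0 of 6 in PYR. Over all probes tested the shares were 2.93% and 2.06%, and the 1 call was that of CUST_8632 given above. CUST_8635, which the study listed in OP, read 3.11, 5.23, 2.64 and 5.30 in log2 ratio there. The SUS denominator of CUST_8635 was not steady between hybridisations, and was well above background on 3 of 8 readings. After dye normalisation, SUS pools 1 to 4 differed 15.8-, 4.71-, 1.17- and 1.86-fold between their OP and PYR arrays for CUST_8635. In PYR its ratios were 1.39, 7.05, 1.51 and 6.12 (4.02 ± 2.99, SD, n = 4, limma adjusted p = 0.0636), and those of CUST_8632 were 1.67, 6.89, 1.81 and 6.14 (limma adjusted p = 0.04995). In PYR, SUS was well above background on 1 array for each of them, so both entered the test through PYR. On each of these probes, the arrays with the resistant strain in Cy5 were the higher ones. With a dye term in the limma fit, adjusted p in PYR became 0.00207 for each of them. That fit called 563 of all 6065 probes tested in PYR, against 125 without the term. Dye and pool change together on these arrays, so the term also takes up spread between pools.

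Of the other immune probes with the largest ratios, hemolin-like CUST_9974 was above 0 on all 4 PYR arrays (5.23, 0.75, 4.27 and 3.65, limma adjusted p = 0.0337, or 0.00882 with a dye term). Hemolin is a recognition protein of the immunoglobulin family in moths. Prophenoloxidase CUST_11367, a precursor of the enzyme that makes melanin at wounds, was below 0 on all 4 PYR arrays (-4.04, -1.52, -4.41 and -5.63, limma adjusted p = 0.0203, with PYR well above background on 1 of them) and on all 4 OP arrays (-0.69, -1.28, -2.21 and -3.12, adjusted p = 0.0551). CUST_8167, named antibacterial, averaged 3.09 on 3 OP arrays (adjusted p = 0.0272), but 1.92 with its marked spot on replicate 2 kept (adjusted p = 0.227). Cecropin CUST_8636 averaged 2.11 in OP (adjusted p = 0.0361). None of these passed the threshold of 0.01 in the fit without a dye term.

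The study also listed CUST_10193, described as immune-related hdd23, in OP. Its ratios there were -3.76, -3.74, -2.09 and -4.62, and in PYR they were -1.81, 1.43, -2.46 and -1.44, too dim to be tested.

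**Figure D5:**
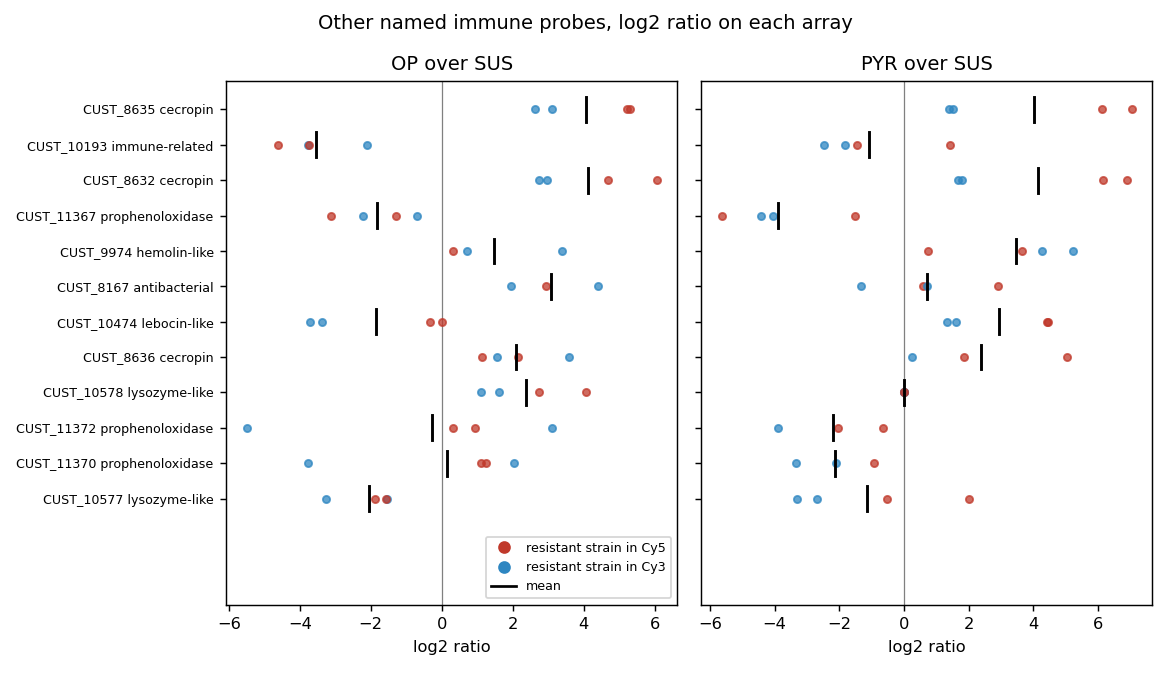
Log2 ratio over SUS on each array for 12 immune probes other than the members and their families' listed probes, with the dye of the resistant strain as colour and the mean as a black bar. The cecropins CUST_8635 and CUST_8632 were above 0 on all 8 arrays, and on the PYR arrays lay between 1.39 and 1.81 with PYR in Cy3 and between 6.12 and 7.05 with PYR in Cy5.

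Whether the comparisons differed was tested only for the 49 immune probes that no contrast had been used to choose. Of these 0 were called (limma on all 8 arrays, smallest adjusted p = 0.0767, 6 at an unadjusted p under 0.05), beside 0.534% of the 6932 probes tested for the difference. With replicate number entered as a block, 1 of the 49 was called, the lebocin-like CUST_10474 (adjusted p = 0.00320), beside 1.99% of all probes in that fit, so the count is close to the share over the array. Lebocins are proline-rich antibacterial peptides of moths. The ratios of CUST_10474 were 1.599, 4.41, 1.32 and 4.46 in PYR. In OP they were -3.71, 0.00, -3.38 and -0.34, but OP was never well above background and SUS was on 2 arrays. The quotient there was 1.53 to 1.95, depending on the normalisation, and is not a strict bound. The difference between the comparisons rests partly on a background channel.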

How the data were processed

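The authors scanned the arrays and deposited Agilent Feature Extraction output (version 10.7.1.1 per the file headers, 10.5 per the submitters' notes): the intensity of each spot, background-subtracted and dye-normalised, and a log10 ratio of Cy5 to Cy3, which the software sets to 0 where it finds no signal. The deposited series table held the same log10 ratios. Later normalisation by the authors was not used here.

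The members and lists were chosen with earlier results of these data known. Groups, dyes and replicate numbers came from the labels. Named probes were the members, the immune probes of the study's tables, the 5 probes nearest to each member, and of the immune keyword list the 10 with the largest absolute mean ratio. The part of the rule on probes of the same EST was applied only through the study's tables.

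Ratios were put on the log2 scale with the resistant strain as numerator. Spots that the software marks as uneven or as outliers (327 to 903 per array) were dropped, and spots of a probe were averaged. Probes with values on 3 or more arrays, at least 3 of them well above background in one and the same strain, were tested against 0 with limma 3.58.1 in R 4.3.3, and called at an adjusted p under 0.01 and more than 2-fold. Signals for levels and bounds were normalised by loess and Aquantile. Whether pools came from separate rearings is not given in the sources used here, so p-values measure the spread between these pools, and the number of arrays limits the precision. The code was tested on simulated data.

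SUS pools are numbered alike for both comparisons in the labels. Over 5711 probes, deviations of same-numbered arrays correlated at 0.288 to 0.546, and those of others at -0.503 to 0.183, so the numbers pair the arrays. The block (statmod 1.5.0) bears on the difference between comparisons. Probe sequences were not used here.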

Additional observations from a re-analysis of the deposited data

Results flagged for a closer look

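In 3 of 33 groups of 4 values, 1 value stood far from the rest, taken as its gap to the nearest over the group's range. Chance alone sets apart about 1 group in 20. All 3 involved replicate 1 of OP, whose OP channel had 11060 spots well above background, more than any other channel. For diapausin CUST_9323, the OP ratio was -4.80 on replicate 1 and between -7.09 and -6.90 on the others (gap over range 0.918). Before dye normalisation, that probe read 56.3 in OP and 59.97 in SUS on replicate 1. For prophenoloxidase CUST_11370 the OP ratio was -3.76 on replicate 1 and between 1.11 and 2.04 on the others (0.840). For lysozyme CUST_10566, the normalised log2 signal of OP was 4.67 on replicate 1 and between 3.94 and 4.01 on the others (0.906), all of them at background.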

How the results depend on the processing

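Both members kept their direction in PYR, and diapausin in OP, under every alternative run. With normexp correction and loess on median signals, lysozyme CUST_10566 moved to 0.85 in PYR and diapausin CUST_9324 to -3.90 in OP and -3.26 in PYR. Leaving out 1 array at a time gave -0.17 to 0.20 (OP) and 4.43 to 4.98 (PYR) for lysozyme, and -9.42 to -8.34 (OP) and -9.20 to -7.79 (PYR) for diapausin. The bounds ranged from 10.8 to 12.8 for lysozyme in PYR, from 239 to 291 for diapausin in OP and from 132 to 138 in PYR. Of these settings, Aquantile alone was added after seeing the data.

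Counts of calls moved more. In OP, 204 probes became 808 at an adjusted p under 0.05, 78 with a dye term, 0 with normexp (smallest adjusted p = 0.0183), 0 by the methods' t-test and 0 without the dim-probe filter, and 2 to 166 without 1 array. In PYR, 125 became 722, 563, 0, 0 and 0 in that order, and 0 to 18 without 1 array. The difference between comparisons called 37 probes, 138 with the replicate block and 43 with the block as a fixed term. Of the immune probes that are neither members nor in the study's tables, 1 was called in OP, and 0 with normexp, centred arrays, the t-test or no filter, and 0 to 1 without 1 array. In PYR 0 were called, 3 with a dye term, and 0 to 0 without 1 array. The list counts under these settings were added after seeing the data. At an unadjusted p under 0.05, 1860 probes in OP and 1954 in PYR stood in the limma fit. The cause of these moves was not tested. Among the other named probes, 384 values under alternatives held 0 reversals of a call, 7 lost calls, all of CUST_8632 in OP, and 4 gained calls, all with a dye term. The ratios of both members are set by a background channel, so their exact size is not measured.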

Other observations

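These groups were picked after their values were seen. Gallerimycins, defensin-like antifungal peptides of moths, divided by dye on the PYR arrays. With PYR in Cy3, all 5 tested probes were below 0 on replicates 1 and 3, with medians of -3.11 and -1.59. With PYR in Cy5, 4 of 4 and 5 of 5 were above 0 on replicates 2 and 4, with medians of 1.46 and 1.26. On the OP arrays the medians of 6 probes were 0.00, -0.29, 2.04 and -0.67 on replicates 1 to 4. There the division was the other way, with the mean over the Cy3 arrays above that over the Cy5 arrays for all 6, whereas the Cy5 mean was above for all 5 in PYR. Dye and pool change together here and cannot be told apart.

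Of the 5 probes named immune-related that were tested in PYR, 5, 5, 4 and 3 were below 0 on replicates 1 to 4, with medians of -1.80, -0.76, -2.42 and -0.0019. By limma 0 were called, beside 2.06% of all probes tested, and 3 had an unadjusted p under 0.05, beside 32.2%. The methods' t-test called 0 of all 6065 probes.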
